A study of Mus musculus with 20 samples.

Results

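The genes described here build the junctions, adhesive contacts and polarity of epithelial cells. They were taken by symbol alone, as claudins, cadherins, protocadherins, desmosomal cadherins, tight junction scaffolds, integrins, laminins, collagens, keratins, and Pard and Crb polarity genes, with the brightest probe set standing for each gene. The rule found 89 genes with 128 probe sets, out of 9607 genes named by a probe set with 1 symbol. Among the 89 were 17 collagens, 14 cadherins, 14 protocadherins, 10 keratins, 8 claudins, 8 integrin alpha chains, 4 tight junction scaffolds (Cgn, Cgnl1, Magi1 and Magi3), and 3 genes each of polarity regulators, integrin beta chains, laminins and desmosomal cadherins. The remaining 2 shared only the letters of the symbol: Itgb3bp encodes a centromere protein and Pard3bos1 an antisense RNA.

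Messenger RNA of mouse oocytes and of 1-cell, 2-cell, 8-cell and blastocyst embryos was measured on 20 Affymetrix MOE430B arrays, 4 for each stage. The labels give the stage and a replicate number, and record that the RNA was amplified in 2 rounds of in vitro transcription. The sources used here do not give strain, age of the females, culture or the number of embryos in a sample. They do not say that the 4 replicates are separate pools either, so p-values reflect spread among these arrays alone, possibly technical. Every value is a linear intensity, and the values have the same trimmed mean of 150 on each array. Such whole-embryo values cannot tell fewer cells of a type from less RNA per cell. Of 7 oocyte markers measured, 6 were lower in blastocysts than in oocytes, such as Bmp15, an oocyte growth factor, which averaged 13.4 in blastocysts and 2793 in oocytes. The remaining one, Khdc3, was higher, with means of 20822 in blastocysts and 2305 in oocytes. Both trophectoderm markers measured, of 12 listed, were higher in blastocysts, and Tmprss2, a protease of the trophectoderm, averaged 9176 in blastocysts and 82.8 in oocytes. Of 2 inner cell mass markers measured, L1td1 was higher in blastocysts than in oocytes and Esrrb was not called. Of 5 primitive endoderm markers measured, 4 were higher and 1, Lamb1, was not called. No markers of the stages in between were examined.

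Blastomeres of the mouse embryo flatten against each other around the 8-cell stage, a step called compaction that depends on cadherin adhesion, and at the same time gain an apical and a basal side. Outer cells then become the trophectoderm, the first epithelium, whose tight junctions seal the embryo so that a fluid cavity can form. Claudins are the strands of the tight junction, cingulin and the Magi proteins sit on its cytoplasmic face, Pard and Crb proteins set the apical domain, and integrins bind the matrix of laminins and collagens on the basal side.

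Much of what compaction is known for lay outside the genes measured here. Of 37 genes listed as typical of this programme, 26 were not analysed here, among them Cdh1, Tjp1, Krt8, Krt18, Cldn4, Cldn6, Cldn7, Itgb1 and Col4a1. A further 4, Dsc3, Itga5, Itgav and Lama5, were too dim to test. The 7 that were tested were Cdh3, Cgn, Cgnl1, Magi1, Magi3, Lamb1 and Pard3. In all, 57 of the 89 genes (64%) reached the table's median intensity of 82.6 on at least 4 arrays and were tested. On the same basis of 1 probe set per gene, 7475 of 9607 named genes (77.8%) did, so a smaller share of the members was bright enough to test. The other 32 genes had stage means between 1.3 and 88.9 and no single value above 193.2, and 13 of them were below the median on all 20 arrays. They included all 3 desmosomal cadherins and 9 of 14 protocadherins.

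Of the 57 tested genes, 25 (43.9%) differed between stages in a moderated F test (limma) with Benjamini-Hochberg adjustment over all tested probe sets, beside 53% of the 15234 probe sets tested and 59.5% of the 7475 named genes tested, each taken by its brightest probe set as the members were. In what follows the share of all probe sets is given first and that of named genes second. By family, 4 of 7 keratins, 4 of 6 integrin alpha chains, 4 of 8 claudins, 3 of 4 tight junction scaffolds, 3 of 9 cadherins, 2 of 3 polarity genes, 2 of 5 protocadherins, 2 of 11 collagens and 1 of 2 integrin beta chains changed. Members that were lower outnumbered members that were higher in both steps between the 1-cell and the 8-cell stage. Of the members 3 were higher and 7 lower in 2-cell than in 1-cell embryos, or 5.26% and 12.3%, beside 12.2% and 13.4% (higher) and 9.34% and 13% (lower) of the background. At the 8-cell stage 6 were higher and 12 lower than at the 2-cell stage, or 10.5% and 21.1%, beside 14.1% and 15% (higher) and 13.4% and 17.7% (lower). In blastocysts 5 were higher and 2 lower than at the 8-cell stage (8.77% and 3.51%), beside 7.98% and 11.1% (higher) and 6.58% and 7.77% (lower). Between 1-cell embryos and oocytes 2 were higher and 1 lower (3.51% and 1.75%), beside 2.67% and 3.46% (higher) and 4.26% and 6.27% (lower). Over the whole interval, 6 of the 57 were higher and 10 lower in blastocysts than in oocytes, which is 10.5% and 17.5% of the members, beside 21.6% and 21.9% (higher) and 16.1% and 21.2% (lower). Against named genes, the members' share was smaller in both directions over the whole interval. It was larger for lower calls at the 8-cell stage and slightly so for higher calls at the 1-cell stage, and smaller in the other steps and directions. The median log2 change of the tested members over that interval was -0.10, while that of all tested probe sets was 0.12 and that of tested named genes was 0.04.

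**Figure D1:**
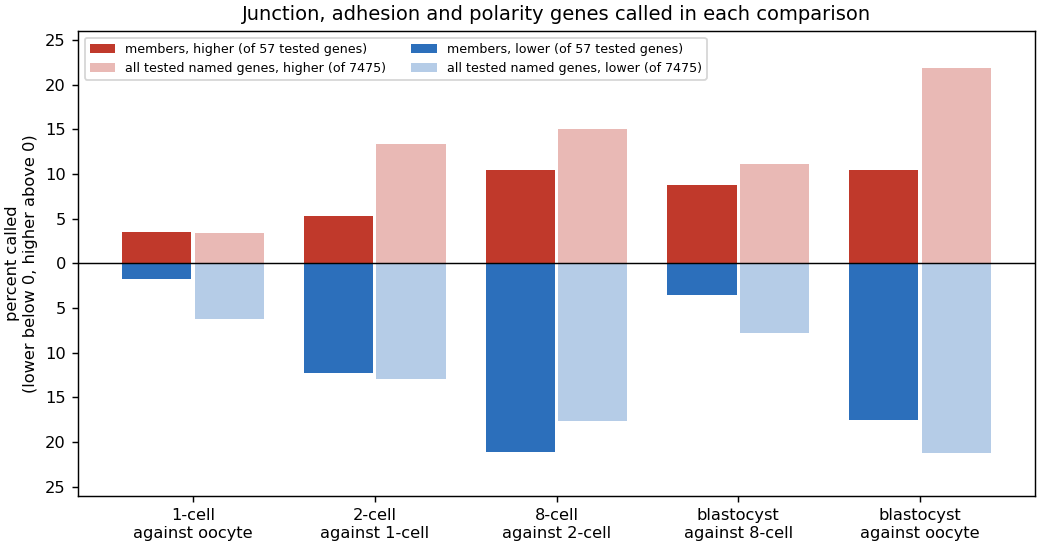
Percent of members (dark bars, 57 tested genes) and of all tested named genes (pale bars, 7475, brightest probe set each) called higher (above 0) or lower (below 0) in each of 5 comparisons by limma at an adjusted p under 0.05. The dark bar of lower members is longest in the 8-cell against 2-cell comparison, where it reaches 21.1%, and the pale bar of higher genes is longest for blastocysts against oocytes, where it reaches 21.9%.

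The heat map of the 25 changed genes shows several patterns. A large group was bright in the oocyte and faded by the 8-cell stage. A few genes had a trough, a few rose late, and a few peaked at the 2-cell stage. Crb1, Cldn34d, Cldn34b2, Itgb3, Cdh4, Pcdh9, Itga10, Itga8, Col4a3 and Krt73 form the first group. Of these, Krt73 was called lower again in blastocysts, at 82.4 to 99.6 against 127.5 to 188.5 at the 8-cell stage. That call was lost under 7 of 32 alternatives. Magi3, Cgn and Pard3 have troughs, at the 8-cell, 2-cell and 8-cell stages. Itga1 and Cldn12 were brightest in blastocysts, and Itgae, Cldn22 and Krt28 at the 2-cell stage. The remaining changed genes were not placed in these groups. Each gene's values are relative to its own mean, since intensities of different probe sets cannot be compared with each other.

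**Figure D2:**
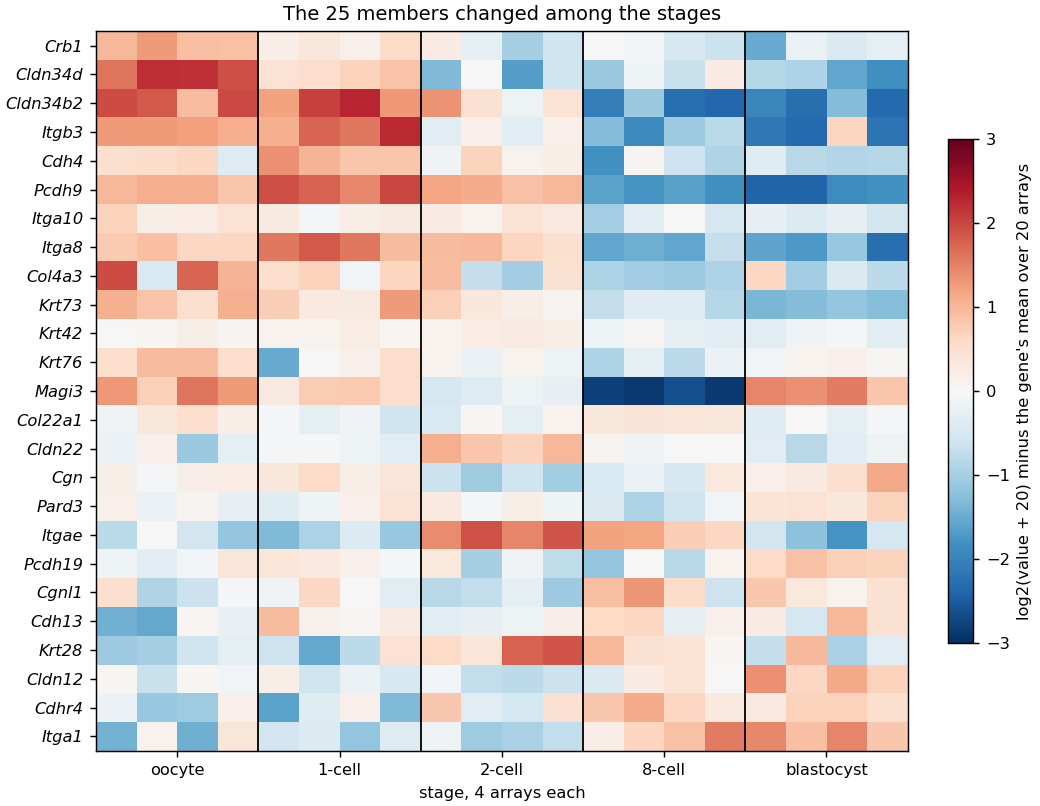
Log2(value + 20) of the 25 members changed among the stages, less each gene's mean over the 20 arrays. Columns are arrays, 4 for each stage from oocyte to blastocyst, and rows are sorted by the stage at which the signal was centred. Magi3 is dark blue on all 4 8-cell arrays and red on all 4 blastocyst arrays, and 1 blastocyst array stands apart for Itgb3.

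Among the tight junction scaffolds, Magi3 made the largest step between consecutive stages of any tested member, its return in blastocysts. Magi3, a multi-PDZ scaffold of the membrane-associated guanylate kinase family, read 724.7, 478.4, 896.0 and 712.8 in oocytes, 347.4, 492.6, 505.3 and 414.7 at the 1-cell stage, and 191.7, 209.7, 250.5 and 233.6 at the 2-cell stage. It read 23.7, 21.3, 28.4 and 21.6 at the 8-cell stage and 816.4, 759.2, 874.9 and 522.7 in blastocysts. The 8-cell arrays were the lowest, far below the table's median, and did not overlap with any other stage. By limma the log2 change was -2.46 ± 0.20 (SE) at the 8-cell against the 2-cell stage (adjusted p = 7.22e-10) and 4.10 ± 0.20 in blastocysts against the 8-cell stage (adjusted p = 5.6e-13), a ratio of mean intensities of 31.3. Blastocysts and oocytes were separated by 0.09 log2 units (95% interval -0.33 to 0.50). The 3′ over 5′ log2 ratio of Gapdh was also lowest at the 8-cell stage (1.04 ± 0.39, SD, n = 4), and its part in the trough was not tested.

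Cgn, which encodes cingulin, a cytoplasmic tight junction protein that binds actin and myosin, had its trough one step earlier. Its intensities were 716.0, 617.2, 729.2 and 736.9 in oocytes, 809.4, 953.4, 715.2 and 822.1 at the 1-cell stage, 398.3, 290.0, 410.6 and 296.2 at the 2-cell stage, 453.3, 558.9, 445.5 and 794.2 at the 8-cell stage, and 702.8, 766.0, 908.5 and 1401.6 in blastocysts. The 2-cell arrays lay below all others, while 1 8-cell array overlapped the blastocysts. Cgn fell at the 2-cell stage, by 1.21 on the log2 scale against the 1-cell stage (SE 0.20, limma adjusted p = 7.45e-05). It rose by 0.64 at the 8-cell against the 2-cell stage (adjusted p = 0.0209) and by a further 0.71 in blastocysts against the 8-cell stage (adjusted p = 0.0181). Both rises were lost under 4 of 32 alternatives. For the 8-cell stage these were arrays centred on their median and leaving out 2-cell replicate 2 or 4 or 8-cell replicate 4. For blastocysts they were a fit of the compared stages only and leaving out 8-cell replicate 1 or 3 or blastocyst replicate 4. The limma adjusted p reached 0.0982 for the 8-cell stage and 0.092 for blastocysts.

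Cgnl1, the paralog of cingulin, was much dimmer but also rose at the 8-cell stage, with 105.5, 146.7, 77.5 and 23.5 against 17.8, 19.8, 35.6 and 11.3 at the 2-cell stage (log2 change 1.27, limma adjusted p = 0.0174). The groups overlapped through 8-cell replicate 4. Cgnl1 stayed in testing under 27 alternatives, and 1 of these, without 2-cell replicate 4, lost the call (limma adjusted p = 0.053). Another Cgnl1 probe set, too dim to test, went the other way, with means of 48.8 (2-cell) and 11.4 (8-cell). Magi1 was not called in any comparison and averaged 88.4 ± 26.8 (SD, n = 4) in blastocysts and 83.6 ± 25 in oocytes, with a 95% interval of the log2 difference from -0.56 to 0.69.

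Cldn12, a claudin that lacks the usual binding motif for PDZ scaffolds, was the only claudin called higher in whole blastocysts than at the 8-cell stage. Blastocysts read 1172.4, 697.5, 1002.1 and 723.5, and 8-cell embryos read 322.8, 531.9, 598.7 and 443.5. Oocytes had values of 462.5, 271.3, 453.9 and 420.3. All 4 blastocyst arrays were above all arrays of both earlier stages, with log2 changes of 0.90 ± 0.23 (SE) against the 8-cell stage (limma adjusted p = 0.00871) and 1.12 against oocytes (adjusted p = 3.83e-04). A smaller step of 0.62 at the 8-cell against the 2-cell stage had an adjusted p of 0.048 and was lost under 16 of 32 alternatives (adjusted p up to 0.153).

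Pard3, the Par3 scaffold that organises the apical Par complex, also had its lowest mean at the 8-cell stage. It read 610.3, 616.9, 580.3 and 723.1 in blastocysts, against 326.1, 226.1, 291.8 and 424.1 at the 8-cell stage and 504.8, 396.9, 481.2 and 378.0 in oocytes. The 4 blastocyst values were higher than all others of these stages. The log2 change was 0.98 ± 0.19 (SE) in blastocysts against the 8-cell stage (limma adjusted p = 6.64e-04) and 0.51 against oocytes (adjusted p = 0.0394, lost under 8 of 32 alternatives with values up to 0.23). A second Pard3 probe set had a log2 change of -0.60 against oocytes that was not called (adjusted p = 0.107). Pard3 had fallen by 0.59 at the 8-cell against the 2-cell stage (adjusted p = 0.0237), a call lost without 2-cell replicate 1 or 3 or 8-cell replicate 2 or 3 (adjusted p up to 0.105). Its paralog Pard3b was not called in any comparison and averaged 268.1 ± 81.4 (SD, n = 4) in blastocysts and 328.7 ± 85.7 in oocytes. Crb1, a Crumbs protein best known from the retina, was lower in blastocysts, with 63.4, 186.8, 157.5 and 174.8 against 458.5, 562.8, 427.4 and 423.2 in oocytes (log2 change -1.63, adjusted p = 2.86e-05). No blastocyst value of Crb1 reached the lowest oocyte value.

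The protocadherin Pcdh19, a delta-protocadherin of the X chromosome, was the only other member higher in blastocysts than at the 8-cell stage, with 238.9, 298.5, 265.1 and 254.3 against 58.4, 152.3, 78.1 and 167.7 (log2 change 1.17 ± 0.29, limma adjusted p = 0.00647). The groups did not overlap. Itga1, the alpha chain of a receptor for collagen and laminin, rose earlier. It read 57, 85.5, 102.7 and 177.4 at the 8-cell stage against 40.5, 11.9, 14.4 and 20 at the 2-cell stage (log2 change 1.55, adjusted p = 0.00593) and 162.6, 105.0, 166.2 and 97.5 in blastocysts against 5.1, 52.5, 4.3 and 65.9 in oocytes (log2 change 1.76, adjusted p = 0.00135). The values of Itga1 up to the 2-cell stage were all under the table's median, so it passed the filter through 8-cell and blastocyst arrays alone. A second Itga1 probe set was too dim to test. It averaged 21.05 at the 2-cell stage and 45.6 at the 8-cell stage, but 12.6 in blastocysts and 9.3 in oocytes.

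**Figure D3:**
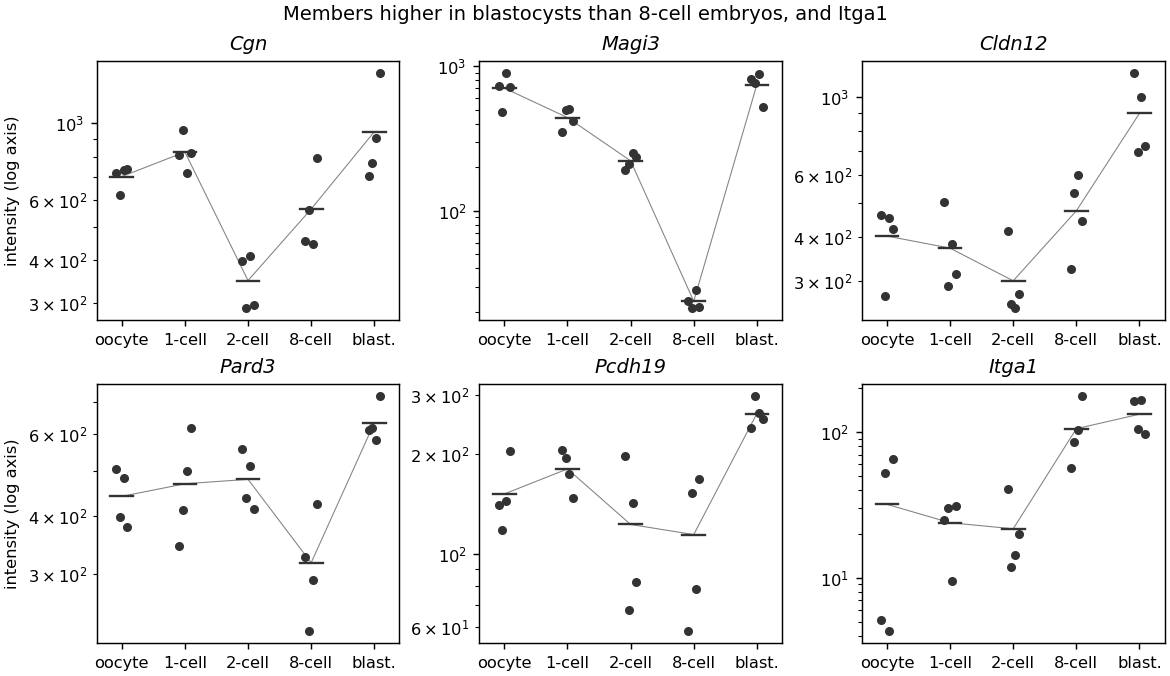
Intensity on each array (points, log axis) and stage mean (bars) for Cgn, Magi3, Cldn12, Pard3, Pcdh19 and Itga1, from oocyte to blastocyst, 4 arrays each. Magi3 drops to between 21.3 and 28.4 at the 8-cell stage and returns to between 522.7 and 874.9 in blastocysts.

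Promoters are shown for members called higher in blastocysts than at the 8-cell stage. The genes were picked by that call, so their shared rise in this step is no separate result. RefSeq promoter sequence of build GRCm38.p6, from 250 bases before to 50 after the gene start, was given for 61 of the 89 members. All 5 members higher in blastocysts (Cgn, Cldn12, Magi3, Pard3 and Pcdh19) were among them, with 8 promoters. Sequences run 5′ to 3′ along the gene, and capitals mark a match on either strand to GCCNNNGGC, a form of the site of TFAP2 factors, or to the E-box CACGTG. The Cgn promoter is chr3:94786433-94786732, the Cldn12 promoter shown is the first of 3 overlapping ones at chr5:5514740-5515039, the Magi3 promoter is chr3:104220357-104220656 (all minus strand), and the Pard3 promoter shown is the first of 2 at chr8:127063806-127064105 (plus strand).
Cgn: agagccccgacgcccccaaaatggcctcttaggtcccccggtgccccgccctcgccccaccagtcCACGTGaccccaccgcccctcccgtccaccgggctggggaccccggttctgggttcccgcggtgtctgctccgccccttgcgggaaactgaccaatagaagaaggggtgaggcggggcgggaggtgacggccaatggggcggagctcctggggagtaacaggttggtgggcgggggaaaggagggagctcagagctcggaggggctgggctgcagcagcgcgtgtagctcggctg
Cldn12: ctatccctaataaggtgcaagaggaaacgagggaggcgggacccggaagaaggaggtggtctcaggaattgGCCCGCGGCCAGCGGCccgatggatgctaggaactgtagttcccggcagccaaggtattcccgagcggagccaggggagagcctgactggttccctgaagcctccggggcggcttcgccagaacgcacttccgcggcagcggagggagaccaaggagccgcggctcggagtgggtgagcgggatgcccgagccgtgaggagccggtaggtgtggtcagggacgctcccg
Magi3: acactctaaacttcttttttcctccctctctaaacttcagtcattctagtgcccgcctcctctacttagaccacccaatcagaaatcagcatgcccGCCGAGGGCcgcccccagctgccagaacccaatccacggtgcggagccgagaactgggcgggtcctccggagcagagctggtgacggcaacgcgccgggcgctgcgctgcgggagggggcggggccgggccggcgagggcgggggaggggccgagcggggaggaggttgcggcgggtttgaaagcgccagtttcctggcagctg
Pard3: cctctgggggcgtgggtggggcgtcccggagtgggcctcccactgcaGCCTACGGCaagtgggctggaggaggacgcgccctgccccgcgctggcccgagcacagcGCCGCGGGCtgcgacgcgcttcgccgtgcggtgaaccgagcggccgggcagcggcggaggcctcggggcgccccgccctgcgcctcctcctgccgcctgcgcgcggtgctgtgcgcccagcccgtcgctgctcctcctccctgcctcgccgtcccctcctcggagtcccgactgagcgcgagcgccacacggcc

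GCCNNNGGC was found in 5 of these 8 promoters, namely all 3 of Cldn12, which hold the same overlapping pair of matches, that of Magi3 and 1 of 2 of Pard3. It was found in 16.6% of all 32851 promoters of the table and in 17.4% of the 69 promoters of members. The 4 sequences printed are rich in G and C, between 66.3% and 78.7% of bases against a median of 52.7% over all promoters, and a motif made mostly of G and C is met more often in such sequence. CACGTG, present in Cgn, was found in 7.15% of all promoters and 5.80% of members' promoters. GGAATG, a core of TEAD sites, was found in 14.7% of all promoters and in 7.25% of members' promoters. CACCTG, the E-box of Snail and Zeb repressors, was found in 20.2% and 23.2%, and was present in the second Pard3 promoter. AACCGGTT, a GRHL site, was found in 0.146% of all promoters. A match is a run of letters in this window and says nothing of binding.

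On the log2(value + 20) scale the largest fall between consecutive stages was that of Pcdh9, a delta-protocadherin known from neurons. By the ratio of mean intensities, 2-cell over 8-cell, Cldn34b2 (9.51) and Magi3 (9.32) exceeded Pcdh9 (7.08). The brightest Pcdh9 probe set read 2384.1, 2562.7, 2538.3 and 2124.3 in oocytes, 4597.1, 4111.9, 3245.1 and 4812.1 at the 1-cell stage, and 2737.5, 2607.9, 2189.1 and 2398.4 at the 2-cell stage. It read 379.1, 334.6, 368.5 and 320.2 at the 8-cell stage and 208.6, 209.4, 307.7 and 323.8 in blastocysts. The 1-cell arrays were the highest without overlap, and the 8-cell and blastocyst arrays lay below all earlier ones. By limma it rose by 0.79 ± 0.16 (SE) at the 1-cell stage against oocytes (adjusted p = 0.00247) and fell by 2.75 at the 8-cell against the 2-cell stage (adjusted p = 2.65e-12).

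Integrin chains followed. Itga8, the alpha chain of a receptor for nephronectin and fibronectin that pairs with Itgb1, read 81.1, 86.7, 81.0 and 163.6 at the 8-cell stage against 550.5, 563.4, 446.0 and 395.1 at the 2-cell stage (log2 change -2.08, limma adjusted p = 2.52e-07), with no overlap. Its 1-cell values of 872.2, 1035.1, 867.5 and 549.6 were all above the oocyte values of 487.0, 533.5, 435.4 and 438.0, but the log2 change of 0.76 had an adjusted p of 0.061. Itgb3, the beta chain of the vitronectin receptor, fell earlier, to 132.1, 193.6, 132.4 and 192.9 at the 2-cell stage against 381.8, 621.9, 553.2 and 873.5 at the 1-cell stage (log2 change -1.74, adjusted p = 0.0047). Blastocysts had 22.9, 17.6, 277.4 and 21.3 and oocytes 443.8, 440.1, 427.0 and 384.3. The groups did not overlap although blastocyst replicate 3 stood apart, and the log2 change of -2.73 (adjusted p = 1.84e-05) became -3.45 without that array. Itga10, a collagen receptor chain, was lower at the 8-cell stage than at the 2-cell stage by a smaller margin, with 104.0, 184.4, 234.6 and 155.6 against 281.2, 252.7, 324.3 and 291.2 (log2 change -0.74, adjusted p = 0.00749).

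Among the claudins 2 members of the little-studied Cldn34 group were lost. Cldn34b2 read 20.1, 12.9, 43.9 and 11.3 in blastocysts against 588.9, 537.8, 278.5 and 600.1 in oocytes (log2 change -3.64 ± 0.36, limma adjusted p = 8.24e-09). Most of its fall came at the 8-cell against the 2-cell stage, with a log2 change of -2.47 (adjusted p = 6.57e-06). Cldn34d fell from the start, with 166.3, 178.6, 205.2 and 232.1 at the 1-cell stage against 402.1, 620.8, 610.1 and 512.8 in oocytes (log2 change -1.36, adjusted p = 0.013) and 35.4, 119.6, 23.9 and 71.9 at the 2-cell stage, a further -1.52 against the 1-cell stage (adjusted p = 0.0017). Neither step of Cldn34d had overlapping arrays. Krt73, a keratin of the hair follicle sheath, read 82.4, 89.0, 99.6 and 90.1 in blastocysts against 538.4, 461.0, 360.2 and 535.6 in oocytes (log2 change -2.15, adjusted p = 1.98e-08). Cdh4, or R-cadherin, was lower in blastocysts than in oocytes by a log2 change of -1.05 (adjusted p = 0.00974), and Col4a3, a chain of basement membrane collagen, by -1.48 (adjusted p = 0.0183). For both, arrays of the 2 stages overlapped, and the Col4a3 call was lost without oocyte replicate 1 or 3 or blastocyst replicate 2 or 4 (adjusted p up to 0.0817).

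**Figure D4:**
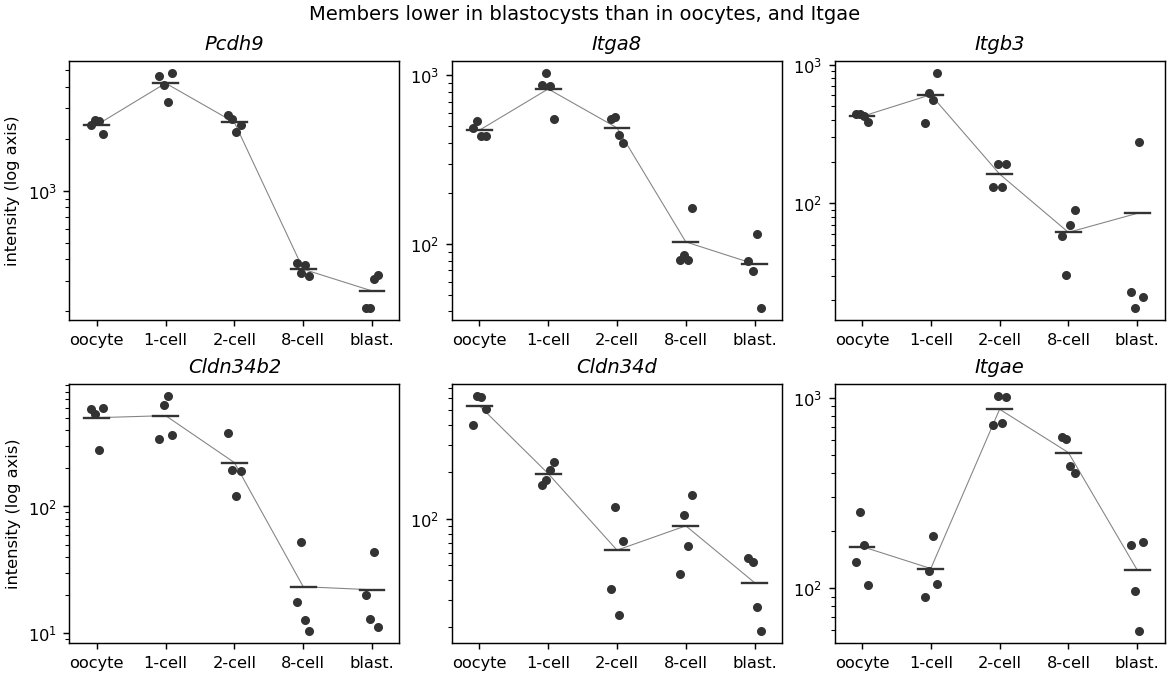
Intensity on each array (points, log axis) and stage mean (bars) for Pcdh9, Itga8, Itgb3, Cldn34b2, Cldn34d and Itgae, from oocyte to blastocyst, 4 arrays each. Itgae peaks at the 2-cell stage, between 716.2 and 1020.0, and 1 blastocyst array of Itgb3, at 277.4, stands above the other 3.

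The 2-cell stage had its own high members. Itgae, the alpha chain of an integrin that binds E-cadherin and is known from T cells, read 716.2, 1020.0, 735.6 and 1001.1 at the 2-cell stage against 90.0, 123.1, 187.9 and 104.9 at the 1-cell stage (log2 change 2.62 ± 0.28, limma adjusted p = 1.08e-07). In blastocysts it had 167.4, 96.5, 59.3 and 174.2, against 618.1, 602.6, 436.7 and 399.6 at the 8-cell stage (log2 change -1.96, adjusted p = 1.69e-05). Neither comparison had overlapping arrays. This probe set is of the s_at type, which can read more than 1 transcript, and in RefSeq the Haspin gene, for a histone kinase, lies inside Itgae, so the signal cannot be assigned to Itgae alone with these data. Cldn22 read 596.9, 498.8, 448.5 and 557.2 at the 2-cell stage against 258.6, 263.2, 238.9 and 213.0 at the 1-cell stage (log2 change 1.05, adjusted p = 7.13e-04) and was lower again at the 8-cell stage, at 284.9, 250.8, 271.3 and 272.7 (log2 change -0.91, adjusted p = 0.00234). Krt28, another hair follicle keratin, was higher at the 2-cell stage with overlapping arrays (log2 change 1.77, adjusted p = 0.00607).

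Of the markers of cumulus and granulosa cells, 7 were measured, and their summed intensity was also highest at the 2-cell stage, 2799.6 to 3349.8 against 1100.4 to 1597.7 at the 1-cell stage. Without Amhr2, the sum of the other 6 was 877.7 to 1005.6 at the 2-cell stage and 981.4 to 1438.3 at the 1-cell stage, and none of the 7 averaged 0 in any stage. The part of these cells in the 2-cell values of Itgae, Cldn22 and Krt28 was not tested.

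Besides Pcdh9 and Cldn34d, the step to the 1-cell stage moved Cdh13, the GPI-anchored T-cadherin. It read 372.9, 202.8, 190.2 and 222.7 at the 1-cell stage against 55.1, 50.4, 192.3 and 155.5 in oocytes (log2 change 1.13, limma adjusted p = 0.0499). The arrays overlapped, and the call was lost under 25 of 32 alternatives (adjusted p up to 0.184). Other calls close to the threshold were those of Cldn34c1, Col22a1, Itgal, Krt42 and Itgb3 at the 8-cell against the 2-cell stage. Their log2 changes were 1.4, 0.51, -0.82, -0.35 and -1.19, and each was lost under at least 16 alternatives. Cdhr4, a cadherin-related gene, was higher in blastocysts than in oocytes by 1.10 (adjusted p = 0.0288, lost with quantile normalization, with arrays centred on their median, and without oocyte replicate 2 or 3 or blastocyst replicate 2 or 3, and up to 0.112 over 31 alternatives), and a second Cdhr4 probe set had a log2 change of -0.78 that was not called.

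Different probe sets of a gene did not always move alike. Of the 54 calls made over the 5 comparisons, 17 had another tested probe set of the same gene, which gave 19 comparisons of probe sets: 4 were called the same way, 2 the opposite way and 13 not at all. Both opposite calls were those of Pcdh9. Its second probe set was dim in oocytes, with 56.8, 39.9, 107.1 and 24.6, and read 324.4, 244.7, 260.8 and 248.3 at the 2-cell stage and 188.0, 147.2, 161.9 and 240.6 in blastocysts. It was higher in blastocysts than in oocytes by 1.5 on the log2 scale (limma adjusted p = 1.47e-04), where the brightest probe set was lower by a log2 change of -3.12 (adjusted p = 8.59e-14). At the 2-cell against the 1-cell stage the second set had a log2 change of 0.86 (adjusted p = 0.0321) and the brightest one of -0.74 (adjusted p = 0.00138). The fall of Pcdh9 described above is thus that of 1 of its probe sets.

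For Cgn, the second probe set rose at the 8-cell against the 2-cell stage too, with 133.9, 202.1, 114.8 and 25 against 17.4, 15.1, 13.6 and 25.6 (log2 change 1.67, limma adjusted p = 0.00555). Its further step in blastocysts against the 8-cell stage was 0.05 and not called (adjusted p = 0.963), and neither was the trough, as its 2-cell value against the 1-cell stage was -0.26 on the log2 scale (95% interval -1.17 to 0.65). For Pard3, the second probe set was lower at the 8-cell stage as well (log2 change -1.01, adjusted p = 0.00979), but in blastocysts it read 95.3, 80.6, 137.6 and 189.2 against 81.7, 145.2, 126.5 and 56.5 at the 8-cell stage, and the change of 0.26 was not called (95% interval -0.34 to 0.85). Of 2 other tested Pcdh19 probe sets, 1 was also higher in blastocysts than at the 8-cell stage (log2 change 0.83, adjusted p = 0.0469) and 1 was not called (0.04, adjusted p = 0.941). The second Cldn12 probe set was not called in any of the 3 comparisons in which the brightest one was, with log2 changes of 0.49 at the 8-cell against the 2-cell stage, 0.51 in blastocysts against the 8-cell stage and 0.64 in blastocysts against oocytes. The log2 ratio of the 3′ to the 5′ probe set of beta-actin, a common measure of how complete the amplified RNA is, had means of 2.41 ± 0.12 (oocyte), 1.86 ± 0.37 (1-cell), 2.33 ± 0.24 (2-cell), 1.93 ± 0.10 (8-cell) and 1.09 ± 0.27 (blastocyst; SD, n = 4 each). The same ratio for Gapdh was lowest at the 8-cell stage, with means of 2.05 ± 0.19 (oocyte), 2.17 ± 0.27 (1-cell), 2.28 ± 0.34 (2-cell), 1.04 ± 0.39 (8-cell) and 2.38 ± 0.47 (blastocyst), and that is the stage at which Magi3 and Pard3 had their lowest means. The part of these ratios in the troughs and in the differences between probe sets was not tested.

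**Figure D5:**
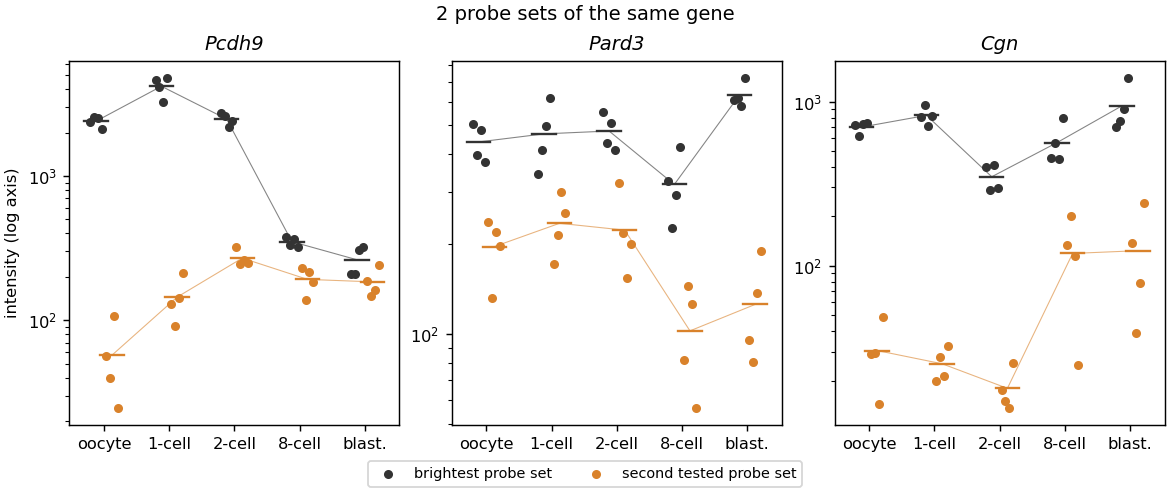
Intensity on each array (points, log axis) and stage mean (bars) for the brightest probe set (dark) and a second tested probe set (orange) of Pcdh9, Pard3 and Cgn, from oocyte to blastocyst. For Pcdh9 the dark points fall to between 208.6 and 323.8 in blastocysts while the orange points lie between 147.2 and 240.6, against 24.6 to 107.1 in oocytes.

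Members not called in any comparison included genes from the list of those typical of this programme, though Cdh1 was not analysed. Cdh3, or P-cadherin, averaged 62.4 ± 44.0 (SD, n = 4) in blastocysts and 89.7 ± 31.2 in oocytes, and Lamb1, a laminin beta chain, averaged 123.3 ± 37.1 in blastocysts and 114.3 ± 9.3 in oocytes. The 95% intervals of their log2 differences were -1.59 to 0.42 and -0.55 to 0.66. Cdh3 reached the table's median intensity on only 8 of 20 arrays. Of the 11 tested collagens, Col22a1 and Col4a3 were called in a pairwise comparison, and the 8 claudins included Cldn9, Cldn34c4 and Cldnd2 without a call. Krt42, the brightest keratin probe set, read between 1152.4 and 1743.9 on all 20 arrays but changed among the stages (limma's F test, adjusted p = 0.0355). Its 8-cell arrays were called lower, with 1188.1 to 1516.5 against 1578.8 to 1743.9 on 2-cell arrays. That call was lost under 19 of 32 alternatives. This probe set is of the x_at type, which can read related genes. A second Krt42 probe set was called higher in blastocysts against oocytes (log2 change 0.60, limma adjusted p = 0.0483).

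Other genes of the same structures, taken from a list of names, are given for context and were tested in the same fit. Each list is shown at only some of the 5 comparisons, so a share given there does not describe the list in the others. Of 9 tight junction genes tested besides the members, 4 were higher in 8-cell than in 2-cell embryos and 5 were not called, beside 15% of named genes higher at that step. At the 2-cell against the 1-cell stage 4 were higher and 1 lower, beside 13.4% and 13% of named genes. In blastocysts against the 8-cell stage 1 was higher and 8 were not called, beside 11.1% of named genes higher. Ocln, or occludin, averaged 438.8 ± 62.4 (SD, n = 4) at the 8-cell stage and 133.0 ± 47.6 at the 2-cell stage (log2 change 1.64, limma adjusted p = 2.15e-05). Cxadr, a junctional adhesion receptor, averaged 661.7 ± 166 at the 8-cell stage and 126.6 ± 35.2 at the 2-cell stage (log2 change 2.21, adjusted p = 3.54e-06), and Marveld3 and Epcam rose as well.

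Of 9 adherens junction genes tested, 5 fell and 2 rose at the 2-cell against the 1-cell stage, beside 13% of named genes lower and 13.4% higher. Ctnnd1, or p120 catenin, was one of the 5, with a log2 change of -1.53 (limma adjusted p = 1.54e-05), and it rose again at the 8-cell stage by 1.25 (adjusted p = 1.47e-04). Its lowest mean was thus at the same stage as that of Cgn. In blastocysts against oocytes 3 of the 9 adherens junction genes were higher and 2 lower, beside 21.9% and 21.2% of named genes. In the polarity list 5 genes were tested. At the 2-cell against the 1-cell stage 2 were lower, beside 13% of named genes, and 3 were not called. In blastocysts against the 8-cell stage 2 were higher, beside 11.1% of named genes, and 3 were not called. Those 3, Dlg2, Dlg5 and Lin7a, were not called in any comparison. Dlg1, the Discs large scaffold, had its lowest mean at the 8-cell stage, 719.5 ± 179 (SD, n = 4), the stage at which Magi3 and Pard3 were lowest. It averaged 2175.5 ± 353 in blastocysts (log2 change 1.59 against the 8-cell stage, adjusted p = 9.25e-07). Cdc42, a GTPase of the Par complex, rose in both steps, by 1.31 at the 8-cell against the 2-cell stage (adjusted p = 1.64e-04) and by 1.32 in blastocysts against the 8-cell stage (adjusted p = 3.54e-04). Of 6 genes that link integrins to actin, 3 were higher in blastocysts than in oocytes, beside 21.9% of named genes, and Tns3, a tensin, reached 4367.1 ± 1183 in blastocysts against 286.8 ± 90.1 in oocytes (log2 change 3.86, adjusted p = 3.2e-12). Among 4 trophectoderm genes tested, 2 were higher in blastocysts than in oocytes, beside 21.9% of named genes, and 2, Klf5 and Fgfr2, were not called. Tead1, a Hippo pathway transcription factor, was one of those higher. It averaged 2878.2 ± 717 in blastocysts and 344.3 ± 57 in oocytes (log2 change 2.97, adjusted p = 1.91e-10). Of 4 further matrix genes, 3 were not called in blastocysts against the 8-cell stage and 1 was lower, beside 7.77% of named genes. That gene, Sparc, fell by 0.66 (adjusted p = 0.0263). The 1 desmosome gene on the array was too dim to test.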

How the data were processed

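Expression was measured on 20 Affymetrix MOE430B arrays, 4 for each of 5 stages, and the sample titles gave each array's stage and replicate number. The authors deposited linear intensities, with 1 value for each probe set. From the values, each array has the same mean of 150 after trimming 2% at each end, and the quantiles differ. The sources used here do not give the summarization software or the scaling target. Of 22511 probe sets other than 64 controls, 14661 have 1 gene symbol in the platform annotation, 245 several and 7605 none. Symbols were updated through Entrez identifiers, and 14486 were found in RefSeq. None of the members' symbols changed. Any pair of arrays differed in at least 99.7% of probe sets. Replicate numbers did not pair the samples: deviations of same-numbered arrays correlated at -0.062 to 0.063.

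The deposited intensities were transformed to log2(value + 20), which understates changes of dim probe sets. Testing was limited to the 15234 probe sets that reached 82.6, the table's median, on 4 or more arrays. Stage means over 20 arrays were fitted in limma 3.58.1 (R 4.3.3) with an intensity trend and 15 residual degrees of freedom, with Benjamini-Hochberg adjustment over all tested probe sets within each comparison and a threshold of 0.05. An F test covered the 4 consecutive comparisons. The procedure was tested on simulated data. Named were, in each comparison, up to 12 called members higher and 12 lower with the largest change, the brightest member of each family, a list of 37 typical genes, and up to 3 called genes per pathway list and comparison. Members, lists and motifs were chosen with earlier results of these data known. Promoters came from the RefSeq table of GRCm38.p6, and 5 motifs were sought on both strands. Alternatives were other pseudocounts (5 and 80), filters, scalings, models and probe sets, and leaving out each array.

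Median intensities averaged 74.1 (oocyte), 73.2 (1-cell), 85.8 (2-cell), 92.1 (8-cell) and 87.3 (blastocyst). Precision is limited by the number of arrays, and detection calls are not part of the table.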

Additional observations from a re-analysis of the deposited data

Results flagged for a closer look

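Dixon's ratio was taken over 135 groups, the 27 called members in 5 stages, to find an array that stood apart from the other 3 of its stage. Chance flags about 1 in 20 such groups, and 8 were found. Cdh4 read 117.5 in oocyte replicate 4 beside 229.4 to 252.9 in the other oocytes, and 119.8 in blastocyst replicate 1 beside 76.6 to 79.9. Cgn read 617.2 in oocyte replicate 2 beside 716.0 to 736.9. Cldn34b2 read 278.5 in oocyte replicate 3 beside 537.8 to 600.1. Cldn34c1 read 64.1 in 2-cell replicate 4 beside 14.4 to 19.3. Crb1 read 63.4 in blastocyst replicate 1 beside 157.5 to 186.8. Itga8 read 163.6 in 8-cell replicate 4 beside 81.0 to 86.7. Itgb3 read 277.4 in blastocyst replicate 3 beside 17.6 to 22.9, which is the highest Dixon ratio of the 8.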

How the results depend on the processing

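Of 54 calls of a named member in a comparison, 33 kept direction and call under every alternative in which the gene was still tested. An alternative that took a gene out of testing was not counted as a loss. Among the 33, the call of Krt28 at the 2-cell stage rests on 27 alternatives, and those of Itga1 and Itgae on 31. Between 1-cell embryos and oocytes, where 3 members were called, 5 were called with a pseudocount of 80, 6 with the filter at the 75th percentile and 5 with array weights. Other counts stayed within 1.5 times the main count. With a replicate block 2, 10, 15, 7 and 15 members were called in the 5 comparisons and 25 changed among stages. Leaving out single arrays gave 2 to 4, 8 to 12, 12 to 18, 5 to 8 and 12 to 17 calls, and 22 to 26 changed members. Without x_at and s_at probe sets, Krt42 turned to 0.32 at the 8-cell against the 2-cell stage and to 0.60 in blastocysts against oocytes, and Cdhr4 turned to -0.78 in blastocysts against oocytes. Those settings read another probe set of the gene. Centring arrays on their median moved the median log2 change of all probe sets from 0.07 to -0.11 at the 2-cell against the 1-cell stage and from 0.12 to -0.07 in blastocysts against oocytes. The share of calls that were higher then was 40.6% in place of 56.6% and 45.2% in place of 57.3%. Members near background, such as Magi3 and Cldn34b2 at the 8-cell stage, have no lower bound here because no detection calls are given.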

Other observations

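The stage at which a gene's mean log2 level was highest was the blastocyst for 7 of the 57 tested members (12.3%), beside 1682 of 7475 tested named genes (22.5%). It was the oocyte for 10 members (17.5%), beside 16.7% of all named genes, the 1-cell stage for 13 (22.8%, beside 19.6%), the 2-cell stage for 11 (19.3%, beside 15.3%) and the 8-cell stage for 16 (28.1%, beside 25.9%). The 7 members highest in blastocysts were spread over tight junction scaffolds (2), a claudin, a cadherin, an integrin alpha chain, a polarity gene and a protocadherin. Among keratins, Krt76 changed among the stages (limma's F test, adjusted p = 0.0148) without a call in a pairwise comparison. Its means were 280.2 (oocyte), 154.3 (1-cell), 154.5 (2-cell), 105.4 (8-cell) and 164.1 (blastocyst). These shares are values only, since members and all genes were not compared by a test.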
